A study of Synthetic plasmid and Mus musculus with 4 samples.

Results

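B701 is 1 of the target sites of a barcoded reporter library in mouse, and 89 of the library's 45670 constructs carry a genomic fragment that overlaps it. The members were chosen by their target name in the deposited tables, and B701 itself was picked from earlier results on these data, on its high RNA relative to DNA in cortex. Its level in cortex is therefore a description and is not tested here. The B in the name is read, from knowledge of the study, as a DNase hypersensitive site of brain; the tables give the letter only. The window of B701 is chr15:80108866-80109165 (mm9), 300 bp long, and the deposited overlap of all 89 members is that with this window. The genes around it were not analysed here.

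Each construct joins 1 fragment of sonicated C57BL/6J genomic DNA to 1 transcribed barcode. The library went into a pair of tissues of CD-1 mice. Retinas were taken on postnatal day 0, electroporated ex vivo and kept in culture for 8 days; 5 of them made up each of 3 replicates. The cerebral cortex was injected stereotactically at 4 to 6 weeks of age with the library in an adeno-associated virus, and its GFP-positive regions were dissected 4 to 5 weeks later; each of 3 replicates is 1 animal. Every replicate gave an RNA and a DNA barcode library. The libraries held 4000439 to 9674859 RNA and 3999412 to 10769648 DNA counts in cortex, and 7025820 to 10411511 RNA and 6501061 to 12147398 DNA counts in retina. Delivery, age and sequencing lane all differ between the tissues, so none of them can be told apart from tissue. These are bulk samples, in which fewer active cells and less RNA per cell cannot be told apart.

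Open chromatin that is hypersensitive to DNase marks promoters and distal enhancers, which are stretches of DNA where transcription factors bind and raise transcription of a gene. A reporter assay takes such a stretch out of its chromosome and asks what it drives alone. Tiling fragments work as a deletion series: when an end moves past a needed stretch, the reporter's RNA drops. Textbook enhancers work in either orientation, although place and orientation can change their strength in a plasmid or virus.

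Activity is given below as the RNA/DNA ratio, the construct's share of the RNA counts over its share of the DNA counts, so a ratio of 1 is the level of the tissue's passing constructs as a whole. Positions within B701 count from 1 at the first base of the window, and lower or negative numbers lie before it on the genome. The strand is the deposited orientation of the fragment; how it lies toward the reporter's promoter is not given in the sources used here. Of the 89 members, 78 had at least 10 counts in each cortex DNA library and 73 in each retina DNA library, with 72 passing in both. The fragments ran from 301 to 646 bp with a median of 463 bp, and together they reached from 80108496 to 80109652. No pair of them had the same ends. They did not tile the site evenly. Of the 78 that passed in cortex, 18 held the whole window, 51 began inside it and 9 began before it and ended inside it. Their starts lay between base -369 and base 256, but no fragment ended before base 226. The lower edge of the site was thus cut back in many steps and the upper edge hardly at all.

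The sequences below are the barcodes that stand for the fragments on which the account turns: 4 minus-strand fragments whose starts step through the place where activity dropped, and 3 pairs of opposite strand with nearly the same ends. They are written as in the deposited construct table. The fragments' own bases are not printed, since no mm9 genome was used here.
chr15:80108932-80109314, minus, bases 67 to 449: gacccatcagcttac
chr15:80108938-80109583, minus, bases 73 to 718: ccgcaaccttatttg
chr15:80108945-80109386, minus, bases 80 to 521: gcataagcataggct
chr15:80108947-80109409, minus, bases 82 to 544: caccgtacgcaggct
chr15:80108713-80109162, plus, bases -152 to 297: ccctcgggtggttag
chr15:80108715-80109169, minus, bases -150 to 304: actaaatcacttcca
chr15:80108883-80109310, plus, bases 18 to 445: ggtgtatgtaatggg
chr15:80108893-80109308, minus, bases 28 to 443: tagagtatggagcta
chr15:80108925-80109407, plus, bases 60 to 542: ctaatagcgtaaaca
chr15:80108925-80109393, minus, bases 60 to 528: gactgccgtttgacc

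In cortex the B701 fragments gave 2.58%, 2.47% and 2.83% of the RNA counts in animals 1, 2 and 3, from 0.197%, 0.206% and 0.203% of the DNA counts. The ratio over the 78 passing members was 13.2, 12.0 and 14.0, or 13.1 ± 1.02 (SD, n = 3). The ratio of all B constructs in cortex was 1.66 ± 0.078 (SD, n = 3). The animals lay close together, and the level did not hang on 1 barcode. The construct with most RNA, the minus-strand fragment of bases 67 to 449, gave 14.4%, 12.7% and 14.6% of the members' RNA from 5.67%, 6.62% and 5.55% of their DNA. Without it the ratio was 11.9 ± 0.74.

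The members differed widely from one another. Their mean ratios over the 3 animals ran from 0 to 85.2, with a median of 7.87 and quartiles of 1.16 and 22.3, where the 38826 passing constructs of the library had a median of 0.479. A ratio over 10 was found for 36 of the 78 members, a ratio from 1 to 10 for 23 and a ratio below 1 for 19. Over the whole library, 0.927% of the constructs exceeded 10. The order of the members was much the same in each animal. The rank correlation between animals was 0.776, 0.820 and 0.819 over the 78 members, where it was 0.190 to 0.232 over all passing constructs; fragments of the same site overlap, so these are descriptions. Per construct, edgeR called RNA higher than DNA for 34 of the 78 members, where 0.665% of all constructs were called higher, and lower for 0, where 0.00773% were called lower (quasi-likelihood test, adjusted p under 0.05). DESeq2 called 44 of them higher. B701 was picked on this contrast, so nothing is read from that count.

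Activity went with where a fragment began. Over the 78 members the mean ratio had a Spearman's rho of -0.719 with the start, -0.673 with the end and 0.750 with the overlap, which move together in a tiling set and are descriptions only. The 12 fragments that began before base -150 had a ratio of 21.1 ± 7.29, the 15 that began from base -150 to 0 had 25.6 ± 3.98, and the 11 from base 1 to 50 had 17.4 ± 2.04 (SD, n = 3). The 15 that began from base 51 to 100 had 13.9 ± 1.21. Later starts had lower values: the 8 from base 101 to 150 had 3.87 ± 2.41, the 8 from base 151 to 200 had 0.525 ± 0.57 and the 8 from base 201 to 250 had 1.03 ± 0.089. The last fragment, which begins at base 256 and holds 45 bp of the window, had 0.163, 2.68 and 2.64. All 15 fragments that began from base -150 to 0 exceeded a ratio of 10, and no fragment that began after base 108 did. In each animal, all 4 groups that began up to base 100 lay above all 3 groups of 8 that began later.

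A single line through the starts divides most of the members. Of the 48 fragments that began at or before base 81, 35 had a ratio over 10 and 1 had a ratio below 1, with a median of 18.2. Of the 30 that began later, 1 had a ratio over 10 and 18 had a ratio below 1, with a median of 0.605. This division was set after the values were seen, so it carries no test. Every fragment with a ratio over 10 held bases 108 to 226, that is chr15:80108973-80109091, a stretch of 119 bp. On the minus strand the shared stretch was longer, bases 73 to 260. The upper ends of these stretches were set by the library, since no passing fragment of the set ended earlier. The start at base 108 rests on 1 fragment. Holding bases 108 to 226 did not go with activity in every member. The plus-strand fragments of bases 93 to 549 and 101 to 476 hold them and had mean ratios of 0.0065 and 0.0953. On the minus strand, the 8 fragments that began before base -150 all hold bases 73 to 260, and 2 of them had a ratio over 10. The lowest of these 8 had a mean ratio of 1.17. The exception among late starts is a plus-strand fragment of bases 108 to 408, the shortest of the members, with ratios of 2.1, 14.1 and 17.7. Another plus-strand fragment with the same start, which runs on to base 505, had 0.0127, 4.80 and 0.855. These fragments begin at the same base and differ in how far they reach and in barcode. The longer was lower in every animal, which is 1 barcode against 1 barcode and was not tested.

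On the minus strand, values below 10 were not confined to late starts. The 8 minus-strand fragments that began before base -150 had a ratio of 9.36 ± 2.11 (SD, n = 3). Minus-strand fragments that began between bases 52 and 82 cover a second place where values went from over 10 to below it. Those from bases 52 and 60 had ratios of 11.7, 18.7 and 15.8 (mean 15.4 ± 3.53) and of 9.38, 13.3 and 16.7 (mean 13.1 ± 3.66). The fragment from base 67 had ratios of 33.5, 23.0 and 36.8 (mean 31.1 ± 7.19). The fragment from base 73 had 13.0, 16.9 and 15.6 (mean 15.2 ± 1.99), although it is the longest of all members at 646 bp. The fragment from base 80 had 3.79, 8.61 and 9.42 (mean 7.27 ± 3.05). The fragment from base 67 stood above its neighbours on both sides in all 3 animals, so the difference from base 67 to base 73 rests on 1 high barcode. The fragment from base 80 lay below those from bases 52, 60, 67 and 73 in all 3 animals. From base 82 there were 3 fragments: that of bases 82 to 544 had 2.81, 3.34 and 4.49, that of bases 82 to 620 had 10.7, 1.25 and 0.285, and that of bases 82 to 656 had 0, 0.624 and 0.825. The first of these lay below the fragment from base 80 in every animal. Below the DNA minimum, the minus-strand fragment of bases 80 to 448 had ratios of 6.03, 1.42 and 2.05. That of bases 72 to 492 had 97.6, 0 and 1.09. The order of these barcodes is given as measured. Each start is seen in 1 to 3 passing barcodes and was not tested.

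Fragments that began still later were mostly near or below the library's level. Those of bases 123 to 529, 136 to 721 and 200 to 545 had no RNA count in any animal. With a floor of 3 RNA counts per library, their DNA counts allow a ratio of up to 0.081, 0.151 and 0.0495 in the library where the floor is highest (counting error only, since barcode reads are not independent molecules). The next lowest were the plus-strand fragment of bases 93 to 549 at 0.0065, the minus-strand fragment of bases 237 to 769 at 0.0142 and the plus-strand fragment of bases 101 to 476 at 0.0953. The 4 fragments with the smallest overlap hold 45, 56, 59 and 64 bp of the window, and their mean ratios were 1.83, 1.38, 0.620 and 0.0142. A fragment of bases 210 to 674 on the minus strand, with the most DNA counts of these, was steady at 1.32, 1.77 and 1.06. Apart from the fragment of bases 108 to 408, these starts ran from no RNA to a mean ratio of 2.50. That value, above the library's level, belonged to the plus-strand fragment of bases 130 to 592 (3.45, 0.0735 and 3.96). None but the fragment of bases 108 to 408 exceeded 10.

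The highest members lay on the other side. The top ratio, 85.2, belonged to a plus-strand fragment of bases -358 to 226, which ends earlier than any other member. Its values were 178, 17.6 and 59.8, so its mean is imprecise; it has 14 DNA counts in animal 1. The next were plus-strand fragments of bases -152 to 297 at 45.3 ± 11.9, 19 to 387 at 42.9 ± 43.9, -189 to 257 at 42.5 ± 25 and -39 to 286 at 41.1 ± 7.36 (SD, n = 3). They were followed by a minus-strand fragment of bases -109 to 487 at 39.3 ± 7.42, a plus-strand fragment of bases -180 to 303 at 34.7 ± 24.1 and a minus-strand fragment of bases -91 to 322 at 33.6 ± 3.96. Of these 8, 6 were plus-strand fragments, and all 6 ended at or before base 387. The minus-strand fragment of bases -91 to 322 is also the shortest of the 18 passing members that span the window, at 414 bp. The longest of them, a minus-strand fragment of bases -190 to 425, had 10.3, 12.8 and 3.67.

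Holding the whole window was tested against holding part of it. The choice of B701 did not use this difference, but the groupings were chosen with earlier results of these data known. The 18 fragments with the whole window had ratios of 29.9, 20.9 and 22.2 in animals 1, 2 and 3, and the 60 with part of it had 9.62, 9.98 and 12.0. Whole-window fragments were higher in 3 of 3 animals, by 1.20 on the log2 scale (SE 0.17). This passed the edgeR quasi-likelihood test of the interaction (adjusted p = 0.0476), where 0.372% of 1612 targets passed. The call is narrow and was lost in several other settings (adjusted p from 5.19e-09 to 0.410), including each fit without 1 animal, although the direction was kept in all of them. The partial fragments were of 2 kinds. The 9 that began before the window had ratios of 28.2, 15.9 and 22.2, which overlap those of the whole-window fragments, and the 51 that began inside it had 7.36, 9.23 and 10.5.

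The side of the fragment's midpoint gave a similar picture. The 60 members centred above the window's midpoint had 8.89, 10.5 and 11.5, and the 18 centred below it had 31.2, 17.9 and 23.4. The difference was -1.20 on the log2 scale (SE 0.24), in the same direction in 3 of 3 animals, and did not pass the edgeR test (adjusted p = 0.126), where 0.472% of 1484 targets did. DESeq2 (adjusted p = 9.14e-05) and edgeR without the library block (adjusted p = 0.0205) called it. For fragment length, the 39 members longer than the median of 466 bp had 11.6, 10.8 and 11.4, and the 39 shorter had 14.1, 12.7 and 15.6. The longer were lower in 3 of 3 animals, by a log2 of -0.32 (SE 0.094), and this did not pass (edgeR adjusted p = 0.318); 0% of 1926 targets passed, 210 had an unadjusted p under 0.05, and DESeq2 called 183, B701 among them (DESeq2 adjusted p = 0.0269).

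The strands were first compared over all members. The 30 plus-strand members had ratios of 17.1, 14.5 and 16.3, and the 48 minus-strand members 11.3, 10.8 and 13.1. Plus was higher in 3 of 3 animals, by 0.44 on the log2 scale (SE 0.14), and this did not pass the edgeR test (adjusted p = 0.348), where 0.0625% of 1601 targets did. DESeq2 called it (adjusted p = 0.0219). Within bins of the start, the order of the strands changed back and forth. Among fragments that began before base -150, the 4 plus-strand members had 65.4, 23.5 and 39.8, and the 8 minus-strand members had 11.4, 7.17 and 9.52. The lowest of these 4 plus-strand members (34.7) lay above the highest of the 8 minus-strand members (22.6). Among fragments that began from base -150 to 0 the strands were alike, at 25.6 ± 3.18 for 5 plus and 26.0 ± 6.34 for 10 minus members, and from base 1 to 50 they had 16.5 ± 2.28 (6 members) and 18.5 ± 5.11 (5 members). From base 51 to 100 minus was higher: the 7 plus-strand members had 5.63, 7.22 and 1.59, and the 8 minus-strand members had 14.0, 14.7 and 18.0. Without the construct with most RNA, the 7 other minus-strand members had 6.07, 10.4 and 10.7, still above plus in each animal. From base 101 to 150 plus was higher in each animal, with 1.30, 8.00 and 7.37 for 5 plus-strand members and 0.524, 0.135 and 0.921 for 3 minus-strand members. From base 151 to 200 plus was higher in 2 of 3 animals, with 1.03 ± 0.87 for 2 members and 0.448 ± 0.53 for 6. The strands thus showed no single order along the site. These bins were set after the values were seen, and the differences within them were not tested.

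The closest pairs of opposite strand were compared next, 1 barcode against 1 barcode and with no test. At the low side, the plus-strand fragment of bases -152 to 297 had 59.1, 38.1 and 38.6, and the minus-strand fragment of bases -150 to 304 had 41.3, 22.2 and 22.8; plus was higher in 3 of 3 animals. Near the window's start, the plus-strand fragment of bases 18 to 445 had 6.47, 12.2 and 6.77, and the minus-strand fragment of bases 28 to 443 had 2.79, 17.9 and 33.7. Minus was higher there in 2 of 3 animals, so this pair shows no steady order. Inside the window, the plus-strand fragment of bases 60 to 542 had 0.183, 11.2 and 0.0262, and the minus-strand fragment of bases 60 to 528 had 9.38, 13.3 and 16.7; minus was higher in 3 of 3 animals. The plus-strand fragments of bases 50 to 666 and 54 to 570 were low as well, at 0.112, 0 and 0.964 and at 1.18, 1.35 and 0.938. Between their starts, a minus-strand fragment of bases 52 to 638 had 11.7, 18.7 and 15.8.

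The length of sequence that follows the window's midpoint in the fragment's own orientation, here called the downstream flank, went along with these differences. It was looked at among the 48 members that began at or before base 81, a limit set after the values were seen. Over all 78 members and both strands the Spearman's rho of the ratio with the downstream flank was 0.121, and over these 48 it was -0.575. On the plus strand the ratio was lower the longer the downstream flank, which ran from 75.5 to 515.5 bp (Spearman's rho -0.921 over 20 members). On the minus strand, where the downstream flank reaches toward lower coordinates, rho was -0.233 over 28 members, and Pearson's r with the log2 ratio was -0.56. Plus-strand members with up to 250 bp downstream had a ratio of 35.1 ± 11.3 (8 members). Those with more had 10.3 ± 2.61 (12 members). The mean ratios of these passing members ran from 26.2 to 85.2 and from 0.359 to 22.1, without overlap. The plus-strand fragment chr15:80108714-80109152, which just missed the DNA minimum, has 136.5 bp downstream and had a mean ratio of 18.7. That value lies within the range of the group with more, so the lack of overlap holds for passing members only. The cut of 250 bp was applied to the same values and was not tried on other targets. On the minus strand the groups up to and over 250 bp had 19.3 ± 1.65 (16 members) and 15.1 ± 3.60 (12 members). Animal 1 had the opposite order there (18 and 19). On the plus strand the downstream flank and the fragment's end are the same measure, and the upstream flank had a rho of 0.732, so the flanks were not separated from position. These relations were noticed in the data, rest on overlapping fragments and carry no test.

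In retina, B701 fragments gave little RNA, as did most of the library. The ratio over the 73 passing members was 0.398, 0.0426 and 0.119 in replicates 1, 2 and 3 (mean 0.187 ± 0.187, SD, n = 3), with 0.0894 ± 0.0055 for all B constructs. No RNA was seen in any replicate for 54 of the 73 members, or 74.0%, where 64.3% of all 36005 passing constructs had none. RNA was seen in 1 replicate for 16, in 2 replicates for 3 and in all 3 replicates for 0. A few barcodes carried what there was: 4 members held 81.4% of the 8321 RNA counts. On the minus strand, the fragment of bases -108 to 376 had 1956 RNA counts in replicate 1 and none in the others, and that of bases 52 to 638 had 1783 in replicate 1 and none in the others. Another, of bases 3 to 552, had 2040 in replicate 3 and none in the others, and that of bases 67 to 449 had 991 in replicate 1 and none in the others. Each of these 4 gave RNA in a single replicate, and all 4 had a ratio over 10 in cortex (25.8, 15.4, 23.0 and 31.1 in this order). Of all 78 members passing in cortex, 36 (46.2%) had such a ratio, and a link between the tissues was not tested.

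Against the level set by the scaling, B701 in retina lay at a log2 RNA/DNA of 0.51 (SE 0.48) and did not pass the edgeR test (adjusted p = 0.587), where 8.96% of 2031 targets passed in either direction. The median target lay at -1.96 in that fit. Its sign is not fixed: without replicate 1 it was -0.29 (edgeR adjusted p = 0.914), and with total library size it was -2.999 and called lower (adjusted p = 1.68e-07). Per construct, edgeR called 0 of the 73 members higher in retina, where 2.33% of all constructs were called higher, and 54 lower, where 64.9% were. The 54 called lower are the 54 members with no RNA in any replicate, so these calls restate the missing counts. No member had an unadjusted p under 0.05 for higher RNA, and DESeq2 called 0 higher.

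None of the 8 members highest in cortex had an RNA count in any retina replicate, and 6 of them passed the DNA minimum there. Having no RNA is the usual state in retina, found for 74.0% of passing members and 64.3% of all passing constructs. For the plus-strand fragment of bases -152 to 297, a floor of 3 RNA counts stands at a retina ratio of 0.0318, 0.0146 and 0.0163 in replicates 1, 2 and 3. This floor covers counting error only and does not bound the fragment's activity. Replicates of 1 barcode differed far more: the minus-strand fragment of bases -108 to 376 had retina ratios of 26.1, 0 and 0. In retina the 17 passing fragments with the whole window had ratios of 0.792, 0.0094 and 0, and the 56 with part of it had 0.311, 0.0483 and 0.145, so the order of these groups differed between replicates. With RNA from so few barcodes, no order along the site could be read in retina at this depth.

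B880 and B102 are 2 other B sites, chosen with their earlier results known. In cortex their ratios were 33.2 ± 5.70 (22 members) and 3.33 ± 0.16 (37 members), with 13.1 ± 1.02 for B701 between them. Whole-window fragments of B880 were lower than partial ones by a log2 of -0.48 (SE 0.28, edgeR adjusted p = 0.653), and those of B102 were higher by 0.91 (SE 0.25, adjusted p = 0.323). At B880 fragments centred above the window's midpoint were higher than those below, by 1.98 (SE 0.18, edgeR adjusted p = 0.00656), where B701 had -1.20. B102 had -1.59 (SE 0.44, edgeR adjusted p = 0.250), in the direction of B701. Whether the sites differ from one another in these effects was not tested. In retina B880 had a ratio of 0.0588 ± 0.066 and B102 of 0.179 ± 0.25, and most of their members had no RNA there (13 of 19 and 26 of 32).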

How the data were processed

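The members and groupings were chosen with earlier results of these data known. Per the labels, captured fragments were cloned with barcodes, 250 bp paired-end reads linked barcode and fragment, and 50 bp reads counted barcodes. Tools listed in the submitters' processing notes, with no role, are bedtools 2.22.1, SAMtools 0.1.19, Bowtie2 2.1.0 and FastQC; the build is mm9. For each construct the authors deposited raw counts and, per the file headers, each count as a fraction of the library total, the RNA/DNA ratio, and log2 of the ratio plus 0.001. The totals are those of constructs with at least 10 counts in each DNA library of the tissue; log2 values recomputed this way matched the deposited ones within 5e-10. Deposited starts count from 0 and are given here from 1.

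Ratios of groups use summed counts. edgeR 4.0.16 in R 4.3.3 (quasi-likelihood, robust, TMM, Benjamini-Hochberg, threshold 0.05) was fitted over all constructs and over all targets with at least 5 constructs. RNA was tested against DNA with the replicate as a block, since both came from the same tissue per the labels; their deviations correlated between -0.043 and 0.019. Differences within a target were tested as an interaction of side and RNA/DNA, with the library as a block and at least 3 constructs on each side. As a self-test, the fits were also run on simulated counts with a fixed dispersion, which need not match the spread of these data. No result here rests on that run. DESeq2 1.42.0, limma 3.58.1 (prior count 2), other scalings, other count minimums, no block, no top construct and each replicate left out were tried. Named constructs are the 8 highest and 6 lowest cortex ratios, the 4 smallest overlaps, the shortest and longest spanning the window and the 3 closest pairs of opposite strand; others named were chosen after their values were seen. Python 3.11.15, numpy 2.4.6, pandas 2.3.3 and scipy 1.17.1 were used.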

Additional observations from a re-analysis of the deposited data

Results flagged for a closer look

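Of the 72 members that passed in both tissues, 34 (47.2%) had a ratio above 1 in all 3 cortex animals and below 1 in all 3 retina replicates, and 0 had the reverse. Over the 34824 constructs that passed in both, these shares were 3.06% and 1.51%. A ratio below 1 in all 3 retina replicates is the library's usual state, found for 88.9% of the members and 87.2% of all constructs. The difference was not tested here, because B701 was picked on its level in cortex.

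The 11 members under the minimum of 10 DNA counts in cortex entered no group ratio or test. They held 2647 RNA counts over the 3 animals, from 59, 137 and 173 DNA counts in animals 1, 2 and 3. Among them, the plus-strand fragment chr15:80108714-80109152, with 8, 36 and 37 DNA counts, had ratios of 21.8, 17.6 and 16.8. Others missed the minimum by less and had lower ratios. The minus-strand fragment of bases 80 to 448, with 14, 13 and 9 DNA counts, had 6.03, 1.42 and 2.05. The plus-strand fragment of bases -21 to 451, with 9, 27 and 31, had 0, 0.834 and 2.65. Just inside the minimum, the plus-strand fragment of bases -68 to 409, with 11, 53 and 29 DNA counts, had 22.3, 19.5 and 20.3.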

How the results depend on the processing

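Settings that turned the sign of the retina value of B701 (log2 0.51) were total library size (-2.999), at least 50 DNA counts (-1.49) and limma on construct means (-0.014); without 1 replicate it ran from -0.29 to 1.36, and without the replicate block it was 1.11. The whole-window difference (1.20) kept its direction in all 11 settings and lost its call with total library size (1.20, adjusted p = 0.0543), at least 50 DNA counts (1.14), limma (3.56) and without the construct with most RNA on each side (1.37); without 1 replicate it ran from 0.98 to 1.35 and was not called. DESeq2 called the strand (0.44), side (-1.20) and length (-0.32) differences, and the fit with no replicate block called the side difference (-1.22) and no other of these 3. Without 1 replicate, strand ran from 0.37 to 0.51, side from -1.42 to -0.89 and length from -0.37 to -0.26. Sizes moved more than 1.5 times in other settings that changed no call: side was -2.95 with limma, and length was -0.58 and -0.59 with at least 1 and at least 50 DNA counts and -0.51 with limma. The cause was not tested. Members called in cortex numbered 28 to 44 over the settings (34 as reported), and those called in retina 0 in all. Over all targets in retina, total library size called 90 higher and 913 lower, in place of 179 and 3, and DESeq2 205 and 492. DESeq2 also called more targets than edgeR for strand (101 against 1), whole window (74 against 6) and side (84 against 7), and 919 constructs higher in cortex against 258; without the block 486 were. In retina, where 838 constructs were called higher, RLE scaling called 176, DESeq2 1281 and the fits without 1 replicate 452 to 554. Members with few DNA counts carry ratios of low precision, and retina RNA came from too few barcodes to map the site.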

Other observations

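Some members were active in 1 or 2 animals and nearly silent in the others. The cause was not tested. On the minus strand, the fragment of bases 44 to 510 had a ratio of 0.634 in animal 1 from 273 DNA counts, against 27.6 and 26.1 in animals 2 and 3. The plus-strand fragment of bases 68 to 481 had 13.8 in animal 2 from 134 DNA counts. In animals 1 and 3 it had 0.411 and 0.259 from 44 and 68 DNA counts. Another minus-strand fragment, of bases 189 to 613 had 3.67 in animal 3 from 345 DNA counts, and 0 and 0.0523 in animals 1 and 2. Of the 78 members, 60 had RNA in every animal; in 31 of these the animals lay within 3-fold and in 16 they differed by more than 10-fold. Among the 36 members with a ratio over 10, these counts were 23 and 4. These constructs were chosen after their values were seen.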
